A study of Homo sapiens with 7 samples.

Results

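Collagens are secreted proteins built from chains that wind into a triple helix, and the fibrillar and interstitial types form the scaffold of connective tissue. Types I and V assemble into banded fibrils, type VI builds beaded filaments from its alpha 1, alpha 2 and alpha 3 chains, type VIII forms open networks, and types XII and XVI sit on the surface of other fibrils. These genes are best known from fibroblasts, but carcinoma cells of mesenchymal character can transcribe them too. The 10 genes examined here were listed by name, with earlier results of these data known, so their comparison with all genes is a description. They are COL1A1, COL1A2, COL5A1, COL5A2, COL6A1, COL6A2, COL6A3, COL8A1, COL12A1 and COL16A1. They are read by 33 of the 54675 probe sets on the arrays, a probe set being the group of probes that measures a transcript. Of the 19775 genes with a probe set of their own, 13640 passed a filter on low signal, and 9 of the 10 collagens and 25 of their 33 probe sets were among what passed.

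Expression was measured on 7 Affymetrix arrays of untreated cultures that all descend from PC-3, an established human prostate cancer line, and that all carry luciferase. TEM4-18, with 2 arrays, is PC-3 selected in culture for the ability to cross human lung endothelium. The other lines have 1 array each and were recovered from mice after intravenous injection. JD1203.Lu (lung) and GS683.LALN (left axillary lymph node, though the text on the design says lung) were grown from TEM4-18. GS672.Ug (urogenital tissue) was grown from PC-3, while GS694.LAd (left adrenal) and GS689.Li (liver) were grown from JD549.Ki, a line taken from a kidney after injection of PC-3. The last 3 are called PC-3-descended below, since they never passed through TEM4-18, and the 4 arrays of TEM4-18 and the lines grown from it are called the TEM4-18 lineage. For JD1203.Lu the labels conflict: JD549.Ki stands in its source name, but its title, description and cell line field give the lung line, and those were followed. The description of GS694.LAd also ends in the name JD549.Ki, and its cell line field was used. Neither parent, PC-3 or JD549.Ki, was analysed here, so a difference between the lineages has no direction in time. Each subline is 1 recovered culture, the liver and adrenal lines have the same parent, and the labels do not say whether the TEM4-18 arrays come from separate cultures, so p-values measure the spread between these arrays alone.

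The labelled cell type was checked first. The keratin KRT18 had signals of 29052 to 38315 and vimentin (VIM) of 61696 to 81724, as in a carcinoma line with mesenchymal features. Of the genes listed as low in PC-3, the 2 on the array were both above the filter of 160.7 on average and so did not bear the label out. CTNNA1 (alpha-catenin) read 105.01 to 479.03, and KLK3 (prostate-specific antigen), from an _x_at set that may cross-hybridise, read 729.53 and 786.54 in TEM4-18 and 1143.5 to 1346.7 in the sublines. The trimmed mean signal was 1500.2 on every array. Differences below are on the scale of log2(signal + 46.9), with standard errors from limma, and a call means a Benjamini-Hochberg adjusted p under 0.05 over the 13640 genes. Between the TEM4-18 arrays, 573 genes (4.2%) lay at least 2-fold apart, and 0 of the 9 collagens did. The collagens varied more widely over the 7 arrays: the highest signal was at least 2-fold above the lowest (with the offset added) for 8 of 9, against 39.4% of all genes, and the median standard deviation was 0.47 against 0.31 for all genes.

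Promoter sequences from RefSeq (GRCh38.p14) were matched for 5 of the 10 members in the table used here. Where a gene had several starts, the first listed was used. The 250 bases upstream of the start are printed for COL6A2 and COL6A3, which encode partner chains of type VI collagen and moved in opposite directions, and for COL16A1, which had the highest standard deviation of the 9 genes over the arrays, while COL1A1 had the widest range. Capitals mark matches on either strand to the GC box GGGCGG, the TATA box TATAAA, the CCAAT box CCAAT or the E2 box CAGGTG, a target of ZEB and Snail repressors.
COL6A2, chr21:46097862-46098111, plus strand: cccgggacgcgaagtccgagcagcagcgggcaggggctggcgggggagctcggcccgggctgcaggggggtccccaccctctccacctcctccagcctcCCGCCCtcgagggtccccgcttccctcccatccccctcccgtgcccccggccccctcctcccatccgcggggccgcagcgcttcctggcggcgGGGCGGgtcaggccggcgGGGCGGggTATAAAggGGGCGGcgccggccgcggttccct
COL6A3, chr2:237414165-237414414, minus strand: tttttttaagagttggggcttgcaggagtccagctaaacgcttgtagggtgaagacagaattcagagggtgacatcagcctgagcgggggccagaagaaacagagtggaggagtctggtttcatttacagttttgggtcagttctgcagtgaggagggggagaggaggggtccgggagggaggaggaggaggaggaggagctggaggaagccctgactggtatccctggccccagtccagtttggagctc
COL16A1, chr1:31704018-31704267, minus strand: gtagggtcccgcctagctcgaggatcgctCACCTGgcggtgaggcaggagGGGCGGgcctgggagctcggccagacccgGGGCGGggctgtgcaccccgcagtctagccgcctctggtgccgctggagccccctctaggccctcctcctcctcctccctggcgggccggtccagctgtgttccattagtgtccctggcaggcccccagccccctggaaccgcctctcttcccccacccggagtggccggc

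The COL6A2 window holds 4 GC boxes and 1 TATA box, the COL16A1 window 2 GC boxes and 1 E2 box, and the COL6A3 window 0 matches to any of the 4 motifs. Among 35116 windows of the same length in the RefSeq table, 42.6% hold a GC box, 10.7% a TATA box, 32% a CCAAT box and 17.5% an E2 box. At the starts used, the COL6A2 and COL6A3 windows thus differ in these motifs, while a match of letters says nothing about binding in these cells.

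The type VI chains did not differ in the same direction between the lineages. COL6A3, whose alpha 3 chain is the longest of the molecule, was lower in the PC-3-descended lines, while COL6A1 and COL6A2, adjacent genes on chromosome 21 that encode the shorter chains, lay higher there, COL6A1 without a call at the gene level.

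COL6A3 is read by 1 probe set. Its signals were 28853 and 29960 in TEM4-18, 22152 in GS683.LALN, 23117 in JD1203.Lu, 15151 in GS672.Ug, 15366 in GS694.LAd and 13592 in GS689.Li. The levels fall into 3 tiers that do not overlap, with TEM4-18 highest, the lines grown from it between, and the PC-3-descended lines lowest. Of all genes, 20.5% lay lower without overlap in the derived lines than in TEM4-18. For the PC-3-descended lines against the lineage this share was 7.89%. How many genes show all 3 tiers was not counted. GS672.Ug and GS694.LAd differ by less than the TEM4-18 duplicates do from each other. In such bulk cultures, fewer cells of a type and less RNA per cell cannot be told apart. Against TEM4-18, COL6A3 fell in the PC-3-descended lines by 1.00 ± 0.11 on the log2 scale, a 2.00-fold lower level (limma, adjusted p = 0.00326, n = 3 and n = 2). Against the whole TEM4-18 lineage it fell by 0.81 ± 0.10 (limma, adjusted p = 0.00225, n = 3 and n = 4). Within the TEM4-18 lineage, the derived lines stood at -0.38 ± 0.12 from TEM4-18, which did not pass (limma, adjusted p = 0.397, n = 2 and n = 2). The call against TEM4-18 ended without TEM4-18 replicate 1 (adjusted p = 0.0717) and without replicate 2 (adjusted p = 0.0896), at differences of -1.03 and -0.97. It also ended with JD1203.Lu counted as PC-3-descended, by its source name (-0.84, adjusted p = 0.163, and -0.63, adjusted p = 0.184, against the lineage).

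COL6A2 is read by 2 probe sets. Signals of the brighter were 17176 and 14701 in TEM4-18, 9628.5 in GS683.LALN, 10742 in JD1203.Lu, 24140 in GS672.Ug, 17637 in GS694.LAd and 19898 in GS689.Li. All 3 PC-3-descended lines lay above the other 4 arrays, though GS694.LAd only just above TEM4-18 replicate 1, and both derived lines lay below TEM4-18. COL6A2 rose by 0.68 ± 0.13 in the PC-3-descended lines against the TEM4-18 lineage (limma, adjusted p = 0.0204, n = 3 and n = 4), a 1.60-fold difference. Against TEM4-18 alone the difference was 0.36 ± 0.16 and did not pass (limma, adjusted p = 0.281, n = 3 and n = 2). The derived lines stood at -0.64 ± 0.17 from TEM4-18 (limma, adjusted p = 0.300, n = 2 and n = 2). The dimmer probe set placed JD1203.Lu (1602.5) above TEM4-18 (1329.2 and 1237) and gave 0.80 ± 0.20 against the lineage (limma, adjusted p = 0.0526 over the 32805 probe sets that passed the filter). The call ended without TEM4-18 replicate 1 (adjusted p = 0.0682), without replicate 2 (adjusted p = 0.113) and without GS689.Li (adjusted p = 0.0815). Median centring (0.495, adjusted p = 0.0687) and counting JD1203.Lu as PC-3-descended (0.488, adjusted p = 0.436) ended it too.

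COL6A1 has 8 probe sets, of which 6 passed the filter. The brightest gave 28066 and 25862 in TEM4-18, 25409 in GS683.LALN, 31364 in JD1203.Lu, 53086 in GS672.Ug, 32245 in GS694.LAd and 36747 in GS689.Li. GS672.Ug was highest by a wide margin. The groups did not overlap, though GS694.LAd lay only just above JD1203.Lu. In the PC-3-descended lines the COL6A1 difference from TEM4-18 was 0.56 ± 0.20 (limma, adjusted p = 0.185, n = 3 and n = 2), and 0.53 ± 0.17 from the lineage (limma, adjusted p = 0.112, n = 3 and n = 4). All 6 probe sets lay higher in the PC-3-descended lines in both comparisons, at 0.28 to 0.83 and 0.13 to 0.78. When each of the 32805 probe sets was tested on its own, the second brightest set passed in both, with 7617.4 and 7330.6 in TEM4-18, 7821.8 and 8520.2 in the derived lines, and 12853, 14073 and 12933 in the urogenital, liver and adrenal lines. That is 0.83 ± 0.13 against TEM4-18 (limma, adjusted p = 0.0120) and 0.76 ± 0.11 against the lineage (limma, adjusted p = 0.00445). The next set in brightness passed against the lineage at 0.78 ± 0.18 (limma, adjusted p = 0.0413). So the gene-level result for COL6A1 depends on which probe set stands for the gene.

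**Figure D1:**
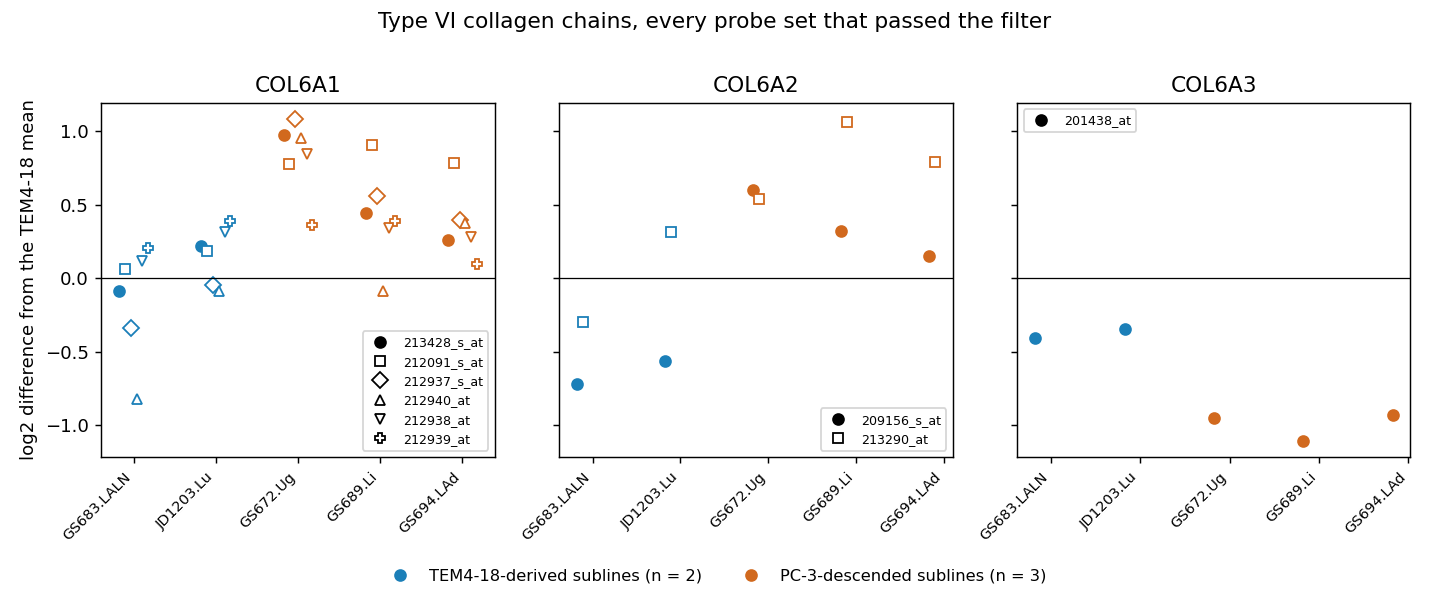
Log2 difference of each in vivo subline from the mean of the 2 TEM4-18 arrays for every type VI collagen probe set that passed the filter (filled symbols: the brightest set of the gene; 1 array per subline). COL6A3 lies below 0 in all 5 sublines and lowest in the 3 PC-3-descended ones, while all COL6A1 sets but 1 point, and both COL6A2 sets, lie above 0 in the PC-3-descended lines.

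Across the 7 arrays, the log2 values of COL6A1 and COL6A2 had a Pearson r of 0.74, those of COL6A1 and COL6A3 of -0.72 and those of COL6A2 and COL6A3 of -0.53. These are descriptions over arrays that share parents. Of 7 endothelial markers, the 3 that passed the filter (KDR, PECAM1 and ROBO4) rose in the PC-3-descended lines against TEM4-18. KDR rose by 2.51 ± 0.46 (limma, adjusted p = 0.0227, n = 3 and n = 2), a call that held in 11 of 19 alternatives. The ROBO4 call held in 15 of 19 and that of PECAM1 in 10 of 19. With the mean of its probe sets, PECAM1 stood at 0.474 (limma, adjusted p = 0.366). The markers under the filter did not all follow this split. CDH5 was at 46.267 and 88.186 in TEM4-18 and at 17.17 or less in the sublines, and VWF and ERG were highest in JD1203.Lu. The summed signal of the 7 was 2498.8 to 2515.3 in TEM4-18, 2769.2 to 4228.9 in the derived lines and 9011.3 to 10051 in the PC-3-descended lines, with CDH5, VWF, TEK and ERG under the filter. Of the last sums, KDR alone made 4535.3 to 6380.1. Of the fibroblast and leukocyte markers 0 were called in either lineage comparison. Summed over 8 fibroblast markers the signal was 1307.8 to 1426.8, 1762.5 to 2179.9 and 1863 to 7014.2 in the same order, of which PDGFRA in GS672.Ug made 6026.4. The fibroblast genes PDGFRB, FAP and POSTN stayed under the filter, with POSTN at 111.73 or less. Of 5 leukocyte markers 3 passed the filter, not PTPRC or CD14, and their sums were 942.17 to 1093.3, 1620.7 to 1877.4 and 743 to 1153.5. The part of these markers in the collagen differences was not tested.

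COL8A1, a short-chain collagen of vessel walls and of the basement membrane of the cornea, was lower in the PC-3-descended lines and highest in the lung line. Its signals were 708.23 and 732.09 in TEM4-18, 752.91 in GS683.LALN, 1907.7 in JD1203.Lu, 223.45 in GS672.Ug, 361.79 in GS694.LAd and 286.96 in GS689.Li. TEM4-18 and GS683.LALN were nearly level, JD1203.Lu stood 2.55-fold above TEM4-18, and the PC-3-descended lines lay below all 4 other arrays. Against the lineage COL8A1 fell by 1.56 ± 0.32 (limma, adjusted p = 0.0244, n = 3 and n = 4), which is 2.94-fold lower. Against TEM4-18 alone it stood at -1.20 ± 0.38 and did not pass (limma, adjusted p = 0.138, n = 3 and n = 2), although it passed without GS683.LALN (adjusted p = 0.0406) or without JD1203.Lu (adjusted p = 0.0472) in the shared estimate of the spread. The call against the lineage ended without either TEM4-18 array (adjusted p = 0.098 and 0.103), without GS689.Li (0.0974) and without GS694.LAd (0.0693). Counting JD1203.Lu as PC-3-descended left -0.60 (adjusted p = 0.717). The other 2 probe sets of COL8A1 stayed under the filter, with signals of at most 270.25.

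Type I collagen, the main fibril protein of bone, tendon and skin, is a trimer of 2 kinds of chain, and their genes differed in whether they could be read at all. COL1A2 passed the filter with 0 of its 3 probe sets. Its signals ran from 11.399 to 202.5 over the 7 arrays, and the brightest set gave 53.652 and 155.24 in TEM4-18, so the duplicates alone spanned much of that range and no fold was taken. COL1A1 passed with 4 of 5 probe sets.

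COL1A1 had signals of 18572 and 16721 in TEM4-18, 3070.9 in GS683.LALN, 30752 in JD1203.Lu, 16448 in GS672.Ug, 14346 in GS694.LAd and 11763 in GS689.Li. The extremes are the lines grown from TEM4-18: GS683.LALN lay 5.67-fold under TEM4-18 and JD1203.Lu 1.74-fold over it, so these sister lines stood 10.0-fold apart in signal, with 1 array each and no test. The next set in brightness had the same extremes, with 533.86 in GS683.LALN and 6784.2 in JD1203.Lu. The dimmest set that passed the filter gave 129.47 and 480.06. The remaining set, whose _x_at suffix marks probes that may cross-hybridise, gave 1486.6 in GS683.LALN against 1331.6 and 1578 in TEM4-18, and so shows no drop there. Between PC-3-descended lines and TEM4-18 the difference was -0.33 ± 0.73 (limma, adjusted p = 0.866, n = 3 and n = 2), and 0.10 ± 0.61 against the lineage (limma, adjusted p = 0.948, n = 3 and n = 4). The latter value turns with 1 array: it was -0.73 without GS683.LALN (adjusted p = 0.0248), 0.93 without JD1203.Lu (adjusted p = 0.00923) and -0.013 without GS672.Ug. Median centring gave -0.084, and averaging the probe sets gave -0.0096.

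**Figure D2:**
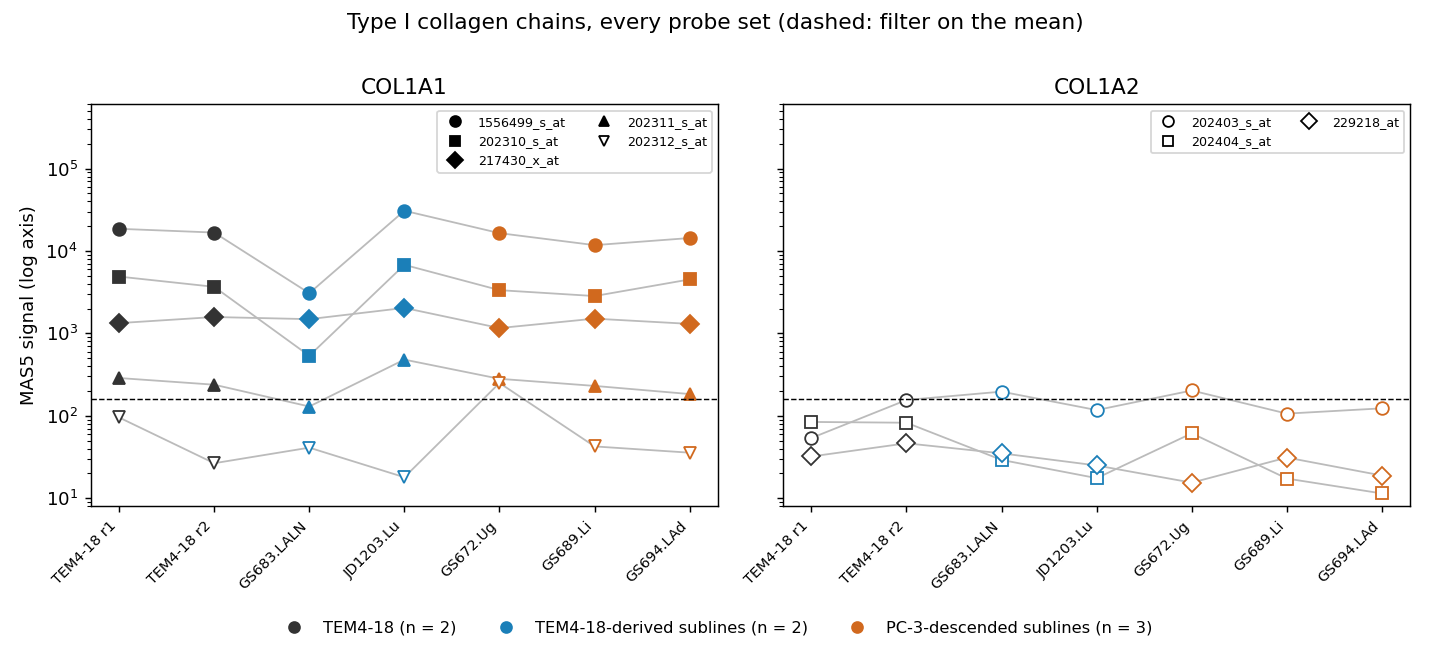
MAS5 signal (log axis) of every COL1A1 and COL1A2 probe set on the 7 arrays, with filled symbols for sets whose mean passed the filter (dashed line at 160.7) and 1 point per array. Of the filled COL1A1 sets, 3 are lowest in GS683.LALN and highest in JD1203.Lu while the _x_at set is not low in GS683.LALN, and the COL1A2 sets lie mostly under the line, at 202.5 or less.

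Type V collagen, which starts type I fibrils and sets their width, passed no comparison. COL5A1 had signals of 599.98 and 994.59 in TEM4-18, 361.43 in GS683.LALN, 744.39 in JD1203.Lu, 944.84 in GS672.Ug, 665.1 in GS694.LAd and 1262.4 in GS689.Li. The gap between the TEM4-18 arrays, 0.69 on the log2 scale, was the widest of the 9 genes. GS683.LALN was lowest on all 3 probe sets (361.43, 380.46 and 44.973). COL5A1 stood at 0.25 ± 0.37 from TEM4-18 in the PC-3-descended lines (limma, adjusted p = 0.788, n = 3 and n = 2) and at 0.51 ± 0.31 from the lineage (limma, adjusted p = 0.385, n = 3 and n = 4). COL5A2 gave 5279.2 and 5186.8 in TEM4-18, 3577.7 in GS683.LALN, 5075.7 in JD1203.Lu, 7392.6 in GS672.Ug, 7321.4 in GS694.LAd and 4271.5 in GS689.Li. GS672.Ug and GS694.LAd were nearly equal and highest, GS683.LALN was lowest, and GS689.Li lay under TEM4-18, unlike its sister GS694.LAd. Its differences were 0.23 ± 0.26 from TEM4-18 (limma, adjusted p = 0.701, n = 3 and n = 2) and 0.38 ± 0.22 from the lineage (limma, adjusted p = 0.353, n = 3 and n = 4). The second COL5A2 set placed all 3 PC-3-descended lines above the rest (3178.5 to 4613 against 2272.2 to 2873.9).

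The fibril-associated collagens differed from each other. COL16A1, a minor component of fibrils and of skin and cartilage matrix, had signals of 441.98 and 387.68 in TEM4-18, 20.35 in GS683.LALN, 58.407 in JD1203.Lu, 147.52 in GS672.Ug, 267.13 in GS694.LAd and 300.29 in GS689.Li. All 5 in vivo sublines lay under both TEM4-18 arrays, and the lines grown from TEM4-18 lay lowest. Their difference from TEM4-18 was -2.45 ± 0.49, which did not pass (limma, adjusted p = 0.168, n = 2 and n = 2), and over all alternatives it ran from -3.59 to -1.15. GS683.LALN lies below the offset, so the size of this difference depends on the offset. The PC-3-descended lines stood at -0.74 ± 0.45 from TEM4-18 (limma, adjusted p = 0.437, n = 3 and n = 2) and at 0.49 ± 0.38 from the lineage (limma, adjusted p = 0.497, n = 3 and n = 4).

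COL12A1, a fibril-associated collagen of tendon and ligament, had signals of 7726.7 and 7469 in TEM4-18, 7209.1 in GS683.LALN, 8005.2 in JD1203.Lu, 8043.8 in GS672.Ug, 4545.5 in GS694.LAd and 4523.4 in GS689.Li. The sister lines from JD549.Ki were low and level with each other, and the other 5 arrays lay close together. The difference was -0.47 ± 0.24 from TEM4-18 (limma, adjusted p = 0.360, n = 3 and n = 2) and -0.47 ± 0.20 from the lineage (limma, adjusted p = 0.227, n = 3 and n = 4). Without GS672.Ug both became -0.738, with adjusted p = 0.0165 and 0.00706. Its 5 probe sets disagreed: 2 further sets also gave their lowest signals in GS689.Li (1368.9 and 251.12) and GS694.LAd (1266.2 and 152.27), the second brightest was nearly flat (2538.6 to 3227.1), and a dim set was highest in GS689.Li (471.54) and GS694.LAd (437.51).

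**Figure D3:**
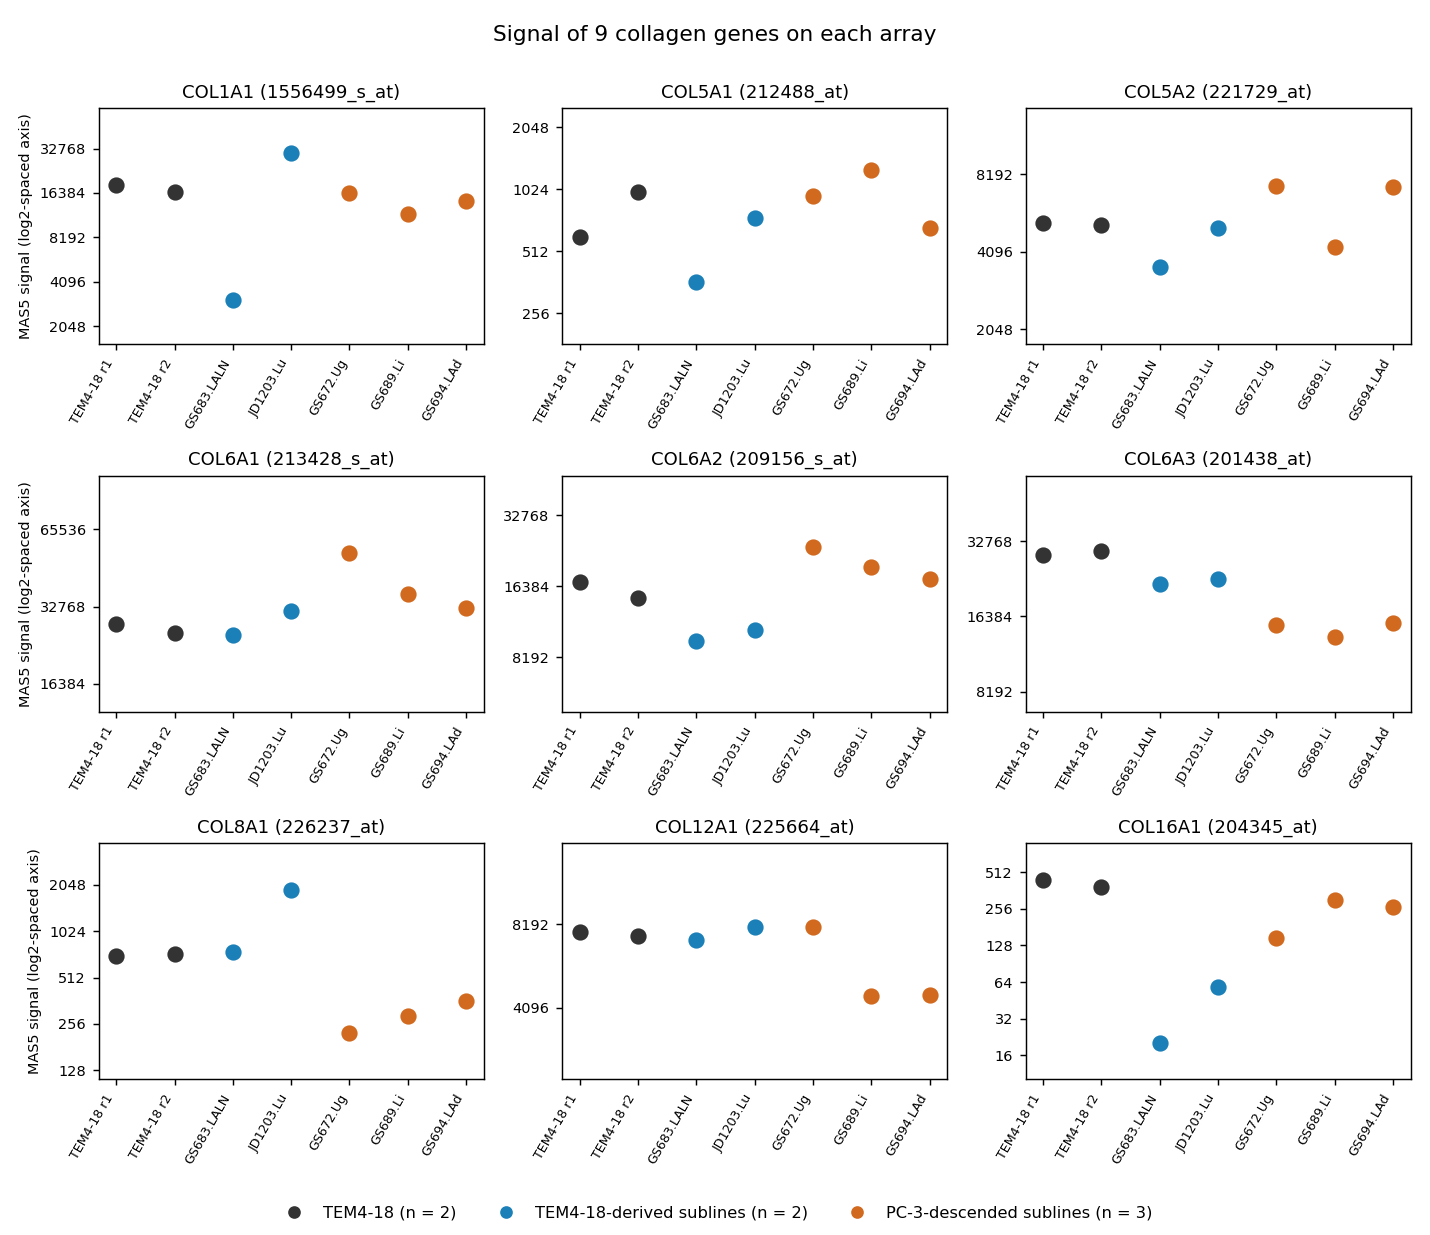
MAS5 signal (log2-spaced axis, 1 point per array) of the brightest probe set of the 9 collagen genes that passed the filter. The orange PC-3-descended lines lie below all other arrays for COL6A3 and COL8A1 and above them for COL6A1 and COL6A2, and GS683.LALN is the lowest array for COL1A1, COL5A1, COL5A2, COL6A1, COL6A2 and COL16A1. For COL6A1 the margin was small (25409 against 25862 in TEM4-18 replicate 2), and its second brightest set was lowest in TEM4-18 replicate 2 instead (7330.6 against 7821.8). The share of all genes lowest in GS683.LALN was not counted. KRT18, VIM and the keratin KRT8 were lowest there too, while CD44 was not.

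Counted over the 9 genes, 1 collagen was called between PC-3-descended lines and TEM4-18 (1 lower, COL6A3), where 3.38% of all genes were called (2.38% higher and 1% lower). Called were 3 of 9 against the whole lineage (COL6A2 higher, COL6A3 and COL8A1 lower), where 5.59% were (3.59% higher and 1.99% lower). The median difference of the 9 was -0.33 against TEM4-18 and 0.38 against the lineage, beside 0.050 and 0.054 for all genes. Groups did not overlap for 6 of 9 collagens against TEM4-18 (2 higher and 4 lower), where 41.4% of all genes did not (23.8% higher and 17.6% lower). Against the lineage they did not overlap for 4 of 9 (2 higher and 2 lower), beside 19.2% of all genes (11.3% higher and 7.89% lower). These comparisons share arrays, so they are not separate evidence. In a test of PC-3-descended against TEM4-18-derived lines, added after the data were seen, 3 of 9 collagens were called (COL6A2 higher, COL6A3 and COL8A1 lower), beside 3.76% of all genes. Among probe sets tested on their own, 2 of the 25 passed against TEM4-18 (2.93% of all) and 5 of 25 against the lineage (5.02% of all). Of all genes, 324 were called higher and 137 lower against TEM4-18, and 490 and 272 against the lineage. With each array centred on its median these splits became 216 and 316, and 347 and 798, as centring moved the median difference of all genes by -0.19 and -0.18.

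**Figure D4:**
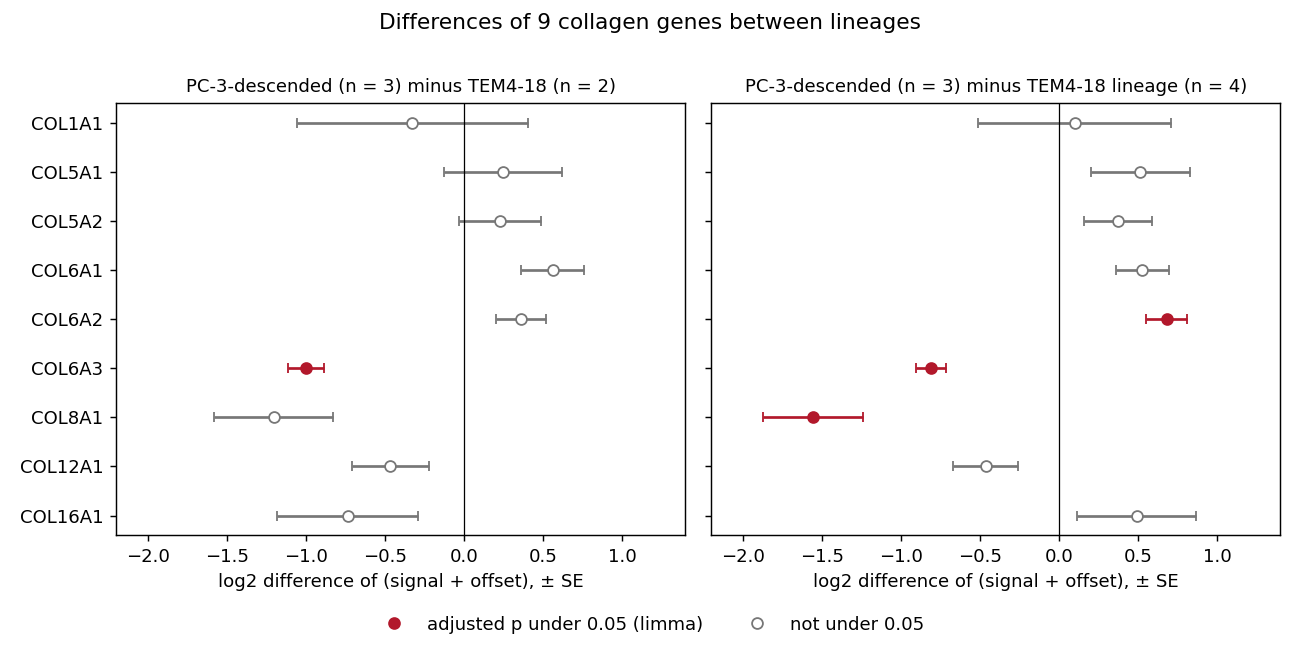
Log2 difference ± SE (limma) of the 9 collagen genes in the PC-3-descended lines (n = 3) from TEM4-18 (n = 2, left) and from the TEM4-18 lineage (n = 4, right), with filled red points for adjusted p under 0.05. COL6A3 is red in both panels, COL6A2 and COL8A1 on the right only, and COL1A1 has the widest error bar.

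The design sets all 5 in vivo sublines against TEM4-18. In limma 0 of the 9 collagens passed, as did 0% of all genes. At an unadjusted p under 0.05 stood 1 collagen, COL6A3, and 1136 genes in all. COL6A3 stood at -0.75 ± 0.22 (limma, adjusted p = 0.408, n = 5 and n = 2) and was lower in 5 of 5 sublines. COL16A1 stood at -1.42 ± 0.65 (limma, adjusted p = 0.611, n = 5 and n = 2) and was also lower in 5 of 5. These 2 were the collagens whose groups did not overlap, both lower, where 16.6% of all genes did not (9.57% higher and 7.01% lower). COL16A1 passed the filter only with its TEM4-18 signals counted, so its lower level in the sublines was partly set by the filter. The median of the 9 was -0.28, beside 0.031 for all genes.

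The lines grown from TEM4-18 were also set against it. Again 0 of 9 collagens passed in limma, where 0.0733% of all genes did (0.0513% higher and 0.022% lower). Groups did not overlap for 5 of 9 (1 higher and 4 lower), where 44.2% of all genes did not (23.7% higher and 20.5% lower). At an unadjusted p under 0.05 stood 3 collagens (COL6A2, COL6A3 and COL16A1) and 1326 genes. Here too COL16A1 was tested only because its TEM4-18 signals carried it over the filter. The median of the 9 was -0.38, beside 0.014 for all genes.

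Subline by subline, collagens that lay outside both TEM4-18 arrays and 2-fold or more from their mean were counted, with no test. Such genes made up 5.71% of all genes in GS683.LALN, 8.37% in GS672.Ug, 10.2% in GS689.Li, 8.75% in JD1203.Lu and 10.6% in GS694.LAd. GS683.LALN had 3 lower (COL1A1, COL5A1 and COL16A1) and 0 higher, where 3.18% of all genes were lower and 2.53% higher. GS672.Ug had 2 lower (COL8A1 and COL16A1, background 2.27%) and 0 higher (background 6.11%). GS689.Li had 2 lower (COL6A3 and COL8A1, background 2.44%) and 0 higher (background 7.73%). JD1203.Lu had 1 lower (COL16A1, background 4.13%) and 1 higher (COL8A1, background 4.61%). In each of these counts COL16A1 is lower after a filter that it passed only with TEM4-18 included. GS694.LAd had 0 in either direction, with backgrounds of 2.71% and 7.9%. The closest to the limit there was COL6A3, at -0.93. GS689.Li and GS694.LAd had 0 of 9 collagens 2-fold apart, where 4.71% of all genes were. The lines grown from TEM4-18 had 2 of 9 (COL1A1 and COL8A1) 2-fold apart, where 10.5% of all genes were.

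The 3 collagens of highest standard deviation, COL16A1, COL1A1 and COL8A1, were each set beside the 5364 other genes whose signal spanned at least 2-fold, to name those of the most similar pattern over the 7 arrays. Nearest to COL16A1 were the zinc transporter SLC39A1 (Pearson r = 0.976), the ceramide synthase CERS3 (0.970) and the phospholipase PLCH2 (0.965). Nearest to COL1A1 were the lipase ABHD6 (0.983), the DNA sensor IFI16 (0.980) and SLC22A17 (0.976). IFI16 was at 457.19 in GS683.LALN, at 3616 and 3343.1 in TEM4-18 and at 4797.5 in JD1203.Lu. Nearest to COL8A1 were C12orf57 (0.984), GATD1 (0.978) and RAP1GAP2 (0.968). With so many candidates and 7 arrays, high values are found by search alone.

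The machinery around collagen was read from lists of 108 further genes, of which 81 passed the filter. Against TEM4-18, 2 rose in the PC-3-descended lines and 0 fell (2.47% called, beside 3.38% of all genes), and against the lineage 3 rose and 0 fell (3.7% beside 5.59%). TGFB3, a growth factor that induces collagen genes in fibroblasts, had signals of 823.1 and 756.28 in TEM4-18, 693.11 in GS683.LALN, 836.58 in JD1203.Lu, and 2790, 3022.6 and 3147.8 in the urogenital, liver and adrenal lines. The PC-3-descended lines stood well apart, higher by 1.86 ± 0.18 than TEM4-18 (limma, adjusted p = 0.00169, n = 3 and n = 2) and by 1.88 ± 0.15 than the lineage (limma, adjusted p = 0.000406, n = 3 and n = 4). The call against TEM4-18 ended without TEM4-18 replicate 2 (adjusted p = 0.0518), and both ended with JD1203.Lu counted as PC-3-descended. It was 1 of 17 tested genes of TGF-beta signalling and collagen transcription, with 0 lower.

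Among 10 tested genes of collagen breakdown, MMP14, a membrane-bound collagenase, was called. Its signals were 1691.8 and 1477.5 in TEM4-18, 1895.3 in GS683.LALN, 2282.5 in JD1203.Lu, and 3234.5, 3384.1 and 3431.4 in GS672.Ug, GS689.Li and GS694.LAd. It rose by 1.06 ± 0.17 against TEM4-18 (limma, adjusted p = 0.0129, n = 3 and n = 2) and by 0.87 ± 0.14 against the lineage (limma, adjusted p = 0.00901, n = 3 and n = 4). The calls ended with the mean of its probe sets (0.60 and 0.51), and without GS689.Li (adjusted p = 0.0605 and 0.0509), GS694.LAd (0.0642 and 0.0572) or TEM4-18 replicate 2 (0.197 and 0.0641). Without TEM4-18 replicate 1 the call against TEM4-18 ended (0.132). Both calls also ended with JD1203.Lu counted as PC-3-descended (0.145 and 0.118), with the sister lines averaged (0.0567 and 0.0507) and with the duplicates averaged (0.191 and 0.0558). The lysosomal protease CTSB was high in the lines from JD549.Ki, at 27606 and 27739 against 4632.2 to 6459.5 elsewhere, and stood at 1.79 ± 0.54 from TEM4-18 (limma, adjusted p = 0.126, n = 3 and n = 2).

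The other lists held 1 call. Of 6 tested collagen-binding glycoproteins, THBS1 (thrombospondin 1) rose against the lineage by 1.16 ± 0.27 (limma, adjusted p = 0.0397, n = 3 and n = 4). That call held in 7 of 19 alternatives only. Of 19 genes that fold and modify procollagen, 0 passed in either comparison. SERPINH1, the collagen chaperone HSP47, ranged from 1101.1 in GS672.Ug and 1681.8 in GS683.LALN to 5186.3 in TEM4-18 replicate 1. Of 12 genes of procollagen processing and crosslinking, 0 passed. SPARC, a collagen-binding glycoprotein, was at 8.6048 in GS683.LALN against 344.5 to 1337.9 elsewhere, and the crosslinking oxidase LOXL4 was lowest there too (652.56 against 874.22 to 2644.3). Of 8 collagen receptors 0 passed, and ITGA2, the alpha 2 subunit of a collagen-binding integrin, was again lowest in GS683.LALN (3258.8 against 5443.1 to 10010). Other listed genes were highest in GS683.LALN, among them the small collagen-binding proteoglycans LUM (613.99 against 43.294 to 223.78) and DCN (487.3 against 102.35 to 344.22). Of the other fibrillar collagens 3 of 7 were tested and 0 passed, among them COL27A1 at 0.71 ± 0.26 from TEM4-18 (limma, adjusted p = 0.190, n = 3 and n = 2). Of 13 other fibril-associated, beaded and network collagens 6 were tested and 0 passed.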

How the data were processed

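The deposited table holds linear intensity values, 1 signal per probe set and array, made by the authors with MAS5 per the submitters' processing notes. No source used here gives its version. Means of the middle 96% of signals were equal on all 7 arrays at 1500.2, and array medians ran from 239.08 to 297.25. Detection calls were not used here. The number of arrays limits the precision.

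Probe sets were named through the platform annotation, with symbols updated by gene ID: 41097 have 1 symbol, 1801 several and 11777 none. Before log2, 46.9 was added to each signal, which is the 20th percentile over the table. Probe sets whose mean reached the 40th percentile (160.7) were kept, and the set of highest mean stood for its gene. Tests used limma 3.58.1 in R 4.3.3 (lmFit, eBayes with trend, 2-sided). The 5 in vivo sublines against TEM4-18 were fitted as 2 groups, and the other comparisons in 1 model of 3 groups. The fit was tested on simulated data with independent arrays, which does not cover arrays that share parents, as these do. All 10 members were named, with up to 4 genes per further list: called genes by lowest adjusted p, then those of widest range. The members and lists were chosen with earlier results of these data known.

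Alternatives changed the offset, filter, probe set rule, scaling, variance model, grouping of related lines and the placing of JD1203.Lu, and left out each array. Tests of every probe set on its own and of PC-3-descended against TEM4-18-derived lines were added after seeing the data. Promoters came from RefSeq (GRCh38.p14).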

Additional observations from a re-analysis of the deposited data

Results flagged for a closer look

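On COL5A2, GS683.LALN (3577.7) lay far below the other 3 arrays of the TEM4-18 lineage (5075.7 to 5279.2), with a gap that made up 0.899 of the group's range. On COL8A1, JD1203.Lu (1907.7) lay far above the other 3 (708.23 to 752.91), with a gap of 0.94 of the range. Dixon's test was run on 18 such groups, and chance flags about 1 in 20.

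For 3 collagens the PC-3-descended and TEM4-18-derived lines differed in the limma test given above (n = 3 and n = 2). That test called 3.76% of all genes. The TEM4-18 mean cancels from the difference, so this is the same result and not a further one. The difference was 1.00 ± 0.16 for COL6A2 (adjusted p = 0.0122), where the PC-3-descended lines all lay above the TEM4-18 mean and both derived lines below it. It was -0.623 ± 0.11 for COL6A3 (adjusted p = 0.0220), which lay below TEM4-18 in all 5 lines. It was -1.91 ± 0.38 for COL8A1 (adjusted p = 0.0301), with the sides turned relative to COL6A2. Without JD1203.Lu the COL8A1 value was -1.26 (adjusted p = 0.0881) and that of COL6A3 -0.592 (adjusted p = 0.0501). Both calls also ended without either TEM4-18 array, without GS689.Li and without GS694.LAd, at adjusted p of 0.0689 to 0.102. The COL6A2 value was 1.02 without GS689.Li (adjusted p = 0.0522). Over all alternatives the adjusted p ran from 0.00928 to 0.465 for COL6A2, from 0.00759 to 0.627 for COL6A3 and from 0.00892 to 0.881 for COL8A1.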

How the results depend on the processing

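Of 717 alternative values for 37 gene differences, 598 kept direction and call, 109 lost the call, 5 gained one and 5 changed sign. A call could be lost only where there was one, so the 598 include values of differences with no call to lose. Those that changed sign were COL5A1 against TEM4-18, whose values with 1 array left out ran from -0.0964 to 0.591, and COL1A1 against the lineage, at -0.0096 with the mean of the probe sets, -0.084 with median centring and -0.726 to 0.926 with 1 array left out. Of the called collagens, COL6A3 kept its call against TEM4-18 in 16 of 20 alternatives. Against the lineage, COL6A3 kept it in 19 of 20, COL6A2 in 12 of 20 and COL8A1 in 12 of 20. Leaving out a TEM4-18 or TEM4-18-derived array assumes that the lone array varies like the other groups.

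For in vivo sublines against TEM4-18, 0 genes became 4 with no offset, 5 with median centring and 0 to 14 with 1 array left out, and 0 collagens stayed 0. Against TEM4-18, the 461 genes called in the PC-3-descended lines became 162 without the trend, 160 with GS689.Li and GS694.LAd averaged, 35 with the duplicates averaged, 14 with JD1203.Lu among them and 31 to 940 with 1 array left out. The 1 collagen became 0 with the duplicates averaged, 0 with JD1203.Lu moved and 0 to 2 with 1 array left out. In the TEM4-18-derived lines 10 genes became 3, 2 and 5 without the trend, with the duplicates averaged and with JD1203.Lu moved, and 2 to 145 with 1 array left out (145 without GS683.LALN), with 0 to 1 collagens (COL1A1 without JD1203.Lu, which leaves an arm of 1 array). Against the lineage, 762 genes became 1145 with median centring, 425 without the trend, 269 and 246 with the sister lines or duplicates averaged, 66 with JD1203.Lu moved and 239 to 1350 with 1 array left out. The 3 collagens became 1 under each of the 3 settings without trend or with averaging (COL6A3), 0 with JD1203.Lu moved and 1 to 4 with 1 array left out. COL16A1 was not tested with the filter at the 60th percentile.

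No paired analysis was possible because only TEM4-18 has replicate numbers in the labels.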
